A study of Gallus gallus with 3 samples.

Results

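The miRNAs gga-miR-221 and gga-miR-222 were taken from the array by name, with probes for passenger strands left out. They are 2 of the 542 chicken miRNAs on the array, and each was printed as 6 spots. The comparison was between leg muscle (the gastrocnemius) of dwarf recessive White Rock and normal recessive White Rock chickens, all 7 weeks old and fed under the same conditions. The dwarf chickens carried a deletion at the 3′ end of *GHR*, the growth hormone receptor gene, which the normal chickens lacked. There were 3 pools of RNA for each strain, each from 3 chickens, and every array took 1 dwarf and 1 normal pool in different dyes, with the dyes swapped on array 2. Array 1 and array 3 had the dwarf pool in Cy5. Pools hide the spread between single chickens, and the sex of the chickens in each pool was not given in the sources used here. Since whole muscle was used, fewer cells of a type and less RNA per cell cannot be told apart.

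Like other miRNAs, miR-221 and miR-222 pair with the 3′ ends of mRNAs through their seed and lower the amount of protein made from them. Their genes lie side by side and their hairpins are known to be cut from one primary transcript. In human cells they act on *CDKN1B* and *CDKN1C*, which encode inhibitors of the cell cycle, and on the receptor gene *KIT*. In cultured quail and mouse myoblasts they fall as the cells leave the cell cycle and fuse, and forced expression delays that step. Human vessel walls express both strongly, and whole muscle holds vessels as well as fibers and satellite cells.

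The target sequences given for the 2 probes are shown because they decide what the probes can tell apart. They are written 5′ to 3′, with the seed (bases 2 to 8) in capitals.
gga-miR-221: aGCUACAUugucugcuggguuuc
gga-miR-222: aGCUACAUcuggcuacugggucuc
The first 8 bases were identical, so the seed was shared, and no other probe among the 542 had this seed. Over the whole length, 20 of 24 aligned positions were identical (83.3%), with 3 mismatches and 1 gap. The sequences lay 4 edits apart. No other target on the array was closer than 8 edits to gga-miR-221, where 2 stood, gga-miR-1764 among them. For gga-miR-222 the nearest distance was 9 edits, as for gga-miR-107. How far each probe also reads the other miRNA was not measured. The GC content was 47.8% for gga-miR-221 and 54.2% for gga-miR-222, against a median of 50% over all probes. In RefSeq's annotation (chicken, bGalGal1.mat.broiler.GRCg7b), *MIR221* and *MIR222* are next to each other, and both lie within the span of the gene LOC107055472. The annotation holds a further gene, *MIR222B*, which is not next to either of them. Whether its product reaches the gga-miR-222 probe is not known from these files.

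The probes of both miRNAs gave a signal in leg muscle of both strains, at a low level. On array 1 the spots of gga-miR-221 read 82.0 on average in Cy5 (dwarf) over a background of 51.4, and 995 in Cy3 (normal) over a background of 837. On array 2 they read 566 in Cy3 (dwarf) over 307, and 108 in Cy5 (normal) over 44.8. The averages on array 3 were 152 in Cy5 (dwarf) over 53.3 and 969 in Cy3 (normal) over 702. After subtraction this left 30.7, 63.1 and 98.5 in Cy5 and 158, 260 and 267 in Cy3 on the 3 arrays, so the step was larger in Cy3, where the background was also higher. For gga-miR-222 the averages over the background were 103 over 51.4 (dwarf, Cy5) and 1124 over 837 (normal, Cy3) on array 1. They were 652 over 307 (dwarf, Cy3) and 167 over 44.8 (normal, Cy5) on array 2. On array 3 they were 143 over 53.2 (dwarf, Cy5) and 1001 over 702 (normal, Cy3). In every pool the mean of both probes therefore stood above the background estimated for their place on the array.

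The height above the background was set against the noise of that array and dye, given by the median absolute deviation of all miRNA spots after subtraction, the majority of them dark. The mean of gga-miR-221 lay 4.42 to 23.3 deviations above 0, lowest in the normal pool of array 1 and highest in the normal pool of array 2. For gga-miR-222 the range was 8.01 to 44.9, with its lowest and highest values in the same pools. The spots of one pool differed by a coefficient of variation of 12.9% to 23.4% for gga-miR-221 and of 6.43% to 16.9% for gga-miR-222. The empty spots gave a second standard. All 6 spots of gga-miR-221 were brighter than the brightest empty spot in 4 of the 6 pools, but 0 of 6 were in the dwarf pool of array 1 and 3 of 6 in that of array 3. For gga-miR-222, 5 of 6 spots were above it in the dwarf pool of array 1 and 0 of 6 in that of array 3, where 1 empty spot reached 99.8 after subtraction. In the other 4 pools all 6 were above it. These exceptions were all dwarf pools in Cy5. After subtraction the brightest empty spot in Cy3 was at -6.50, 185.39 and 73.28 on arrays 1, 2 and 3. In Cy5 it was at 44.87, 39.98 and 99.77. This standard was therefore lower in Cy3 than in Cy5 on arrays 1 and 3, but higher on array 2. The empty spots in Cy3 had medians of -168, -15.5 and -62.8 on arrays 1, 2 and 3 after subtraction.

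Signals are intensities after background subtraction, corrected for dye by a loess curve and scaled so that miRNAs above 32 in both dyes on all arrays had the same median on each. A mean signal above 32 over the 3 pools of a strain counted as detected. By this standard 83 miRNAs were detected in dwarf and 80 in normal chickens, 85 in either, and both members were among them in both strains. The signals of gga-miR-221 in dwarf chickens were 118 on array 1, 81.4 on array 2 and 121 on array 3. In normal chickens they were 118, 75.6 and 200.4. The strains overlapped, the pools of array 2 were the lowest in both strains, and the normal pool of array 3 stood above the other 5. The means were 107 ± 22.1 (SD, n = 3 pools) in dwarf and 131 ± 63.4 (SD, n = 3 pools) in normal chickens, a difference smaller than the SD among normal pools (p = 0.9 by exact permutation of the 6 pools, two-sided, with 0.1 the smallest possible).

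The signals of gga-miR-222 in dwarf chickens were 193 on array 1, 107 on array 2 and 109.6 on array 3. In normal chickens they were 220.2, 148 and 224. The dwarf pool was the lower one on each of the 3 arrays, yet the strains overlapped, since the dwarf pool of array 1 exceeded the normal pool of array 2. The means were 137 ± 49.3 (SD, n = 3 pools) in dwarf and 198 ± 42.8 (SD, n = 3 pools) in normal chickens (p = 0.2 by the same exact permutation). Taken as pairs on one array, the log2 ratios of these signals, dwarf over normal, were -0.19, -0.48 and -1.03 on arrays 1, 2 and 3 (p = 0.25 by a two-sided exact test that flips signs, the smallest it can give). The corresponding log2 ratios of gga-miR-221 were 0.0013, 0.11 and -0.73 (p = 1 by the same exact test).

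**Figure D1:**
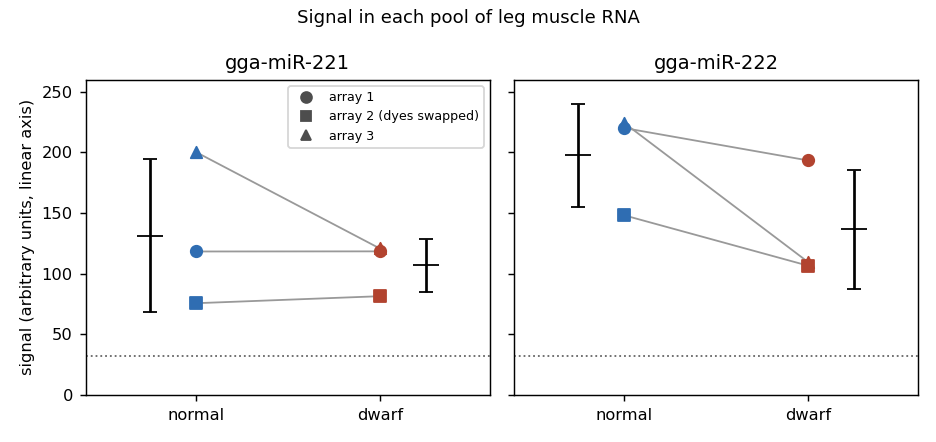
Signal of gga-miR-221 (left) and gga-miR-222 (right) in each pool, in arbitrary units on a linear axis, with lines joining the normal and the dwarf pool of one array, bars showing the mean ± SD of 3 pools, and a dotted line at the detection level of 32. The normal pool of array 3 is the highest for gga-miR-221 at 200.4, and gga-miR-222 is lower in the dwarf pool on each array.

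The signals rested on a large dye correction. At the brightness of these probes the curve of Cy5 over Cy3 lay at log2 values of -2.38, -1.93 and -0.71 on arrays 1, 2 and 3 for gga-miR-221, and at -2.30, -1.98 and -0.71 for gga-miR-222. This correction was thus far larger than the strain ratios of the signals on arrays 1 and 2. It was nearly the same for both members on each array.

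The strain comparison was made on log2 ratios, dwarf over normal, after background correction by normexp with an offset of 50 and loess within each array. The offset draws the ratios of dim miRNAs such as these toward 0. For gga-miR-221 the loess curve of Cy5 over Cy3 lay here at -2.30, -1.39 and -1.16 on arrays 1, 2 and 3. For gga-miR-222 it lay at -2.23, -1.47 and -1.16. On every array, array 3 included, this dye correction was larger in size than the strain ratios below. Arrays 1, 2 and 3 gave log2 ratios of -0.0089, 0.17 and -0.34 for gga-miR-221, so the direction was not the same on the 3 arrays. Their mean was -0.059 with a standard error of 0.16 (limma, adjusted p = 0.961 by the Benjamini-Hochberg method over 85 miRNAs). Its 95% interval ran from -0.48 to 0.36, which is a fold of 0.716 to 1.29. The same arrays gave log2 ratios of -0.15, -0.18 and -0.52 for gga-miR-222, each below 0. Their mean was -0.28 with a standard error of 0.15 (limma, adjusted p = 0.779), with a 95% interval of -0.68 to 0.12, or a fold of 0.626 to 1.08. Neither miRNA passed the threshold of 0.05, and the intervals still hold decreases of about the size seen on array 3.

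None of the 85 miRNAs tested passed that threshold (0%), and the smallest adjusted p was 0.584 (limma). At an unadjusted p under 0.05 there were 5 (5.88%), and neither member was among them, with unadjusted p of 0.73 for gga-miR-221 and 0.125 for gga-miR-222 (limma). A log2 ratio below 0 on all 3 arrays, as gga-miR-222 had, was found for 8 of the 85 (9.41%). By mean ratio, gga-miR-222 was the 5th lowest of the 85 and gga-miR-221 the 25th lowest, with a median over all of 0.039. The SD between arrays was 0.26 for gga-miR-221 and 0.21 for gga-miR-222, and the median SD of the miRNAs tested was 0.27. The SDs of the members were thus near the median, but the offset had drawn their ratios toward 0. Between the signal ratios, which had no offset, the SD was 0.46 for gga-miR-221 and 0.43 for gga-miR-222. These cannot be set against the median of 0.27, as no median SD of signal ratios was taken over the miRNAs tested.

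**Figure D2:**
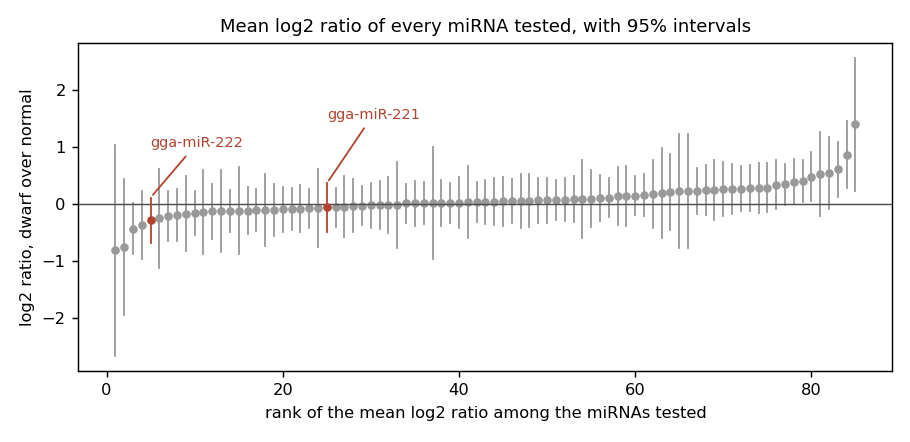
Mean log2 ratio (dwarf over normal, n = 3 arrays) of the 85 miRNAs tested, in order of rank, with 95% intervals from limma as vertical lines and the members in red. The interval of gga-miR-222, at rank 5, reaches from -0.68 to 0.12 and that of gga-miR-221, at rank 25, from -0.48 to 0.36.

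The 6 spots of a probe share one pool and one hybridization and measure technical error alone. On array 3, 6 of 6 spots of gga-miR-221 and 6 of 6 of gga-miR-222 had a ratio below 0. On array 2 this was so for 1 of 6 spots of gga-miR-221 and 6 of 6 of gga-miR-222, and on array 1 for 5 of 6 of each. The SD of the spot ratios on one array was 0.084 to 0.15 for gga-miR-221 and 0.076 to 0.16 for gga-miR-222, below the SD between arrays of each. The spots lay in a pair of rows far apart on the array, 3 in each. The mean log2 ratios of the 2 rows differed by at most 0.063 for gga-miR-221 and 0.083 for gga-miR-222, less than the differences between array 3 and the other arrays. The lower ratios on array 3 were thus found in both places on that array.

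**Figure D3:**
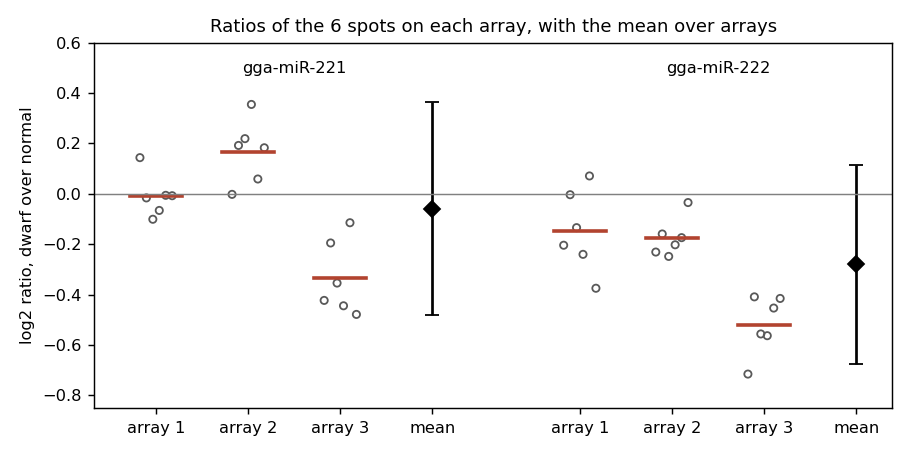
Log2 ratios (dwarf over normal) of the 6 spots of each miRNA on each array as open circles, their mean as a red line, and the mean over the 3 arrays with its 95% interval from limma as a black diamond. Array 3 gave the lowest mean for both, at -0.34 for gga-miR-221 and -0.52 for gga-miR-222.

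The members were then compared with each other, to see whether a pair from one primary transcript moved alike. The log2 ratio of gga-miR-221 exceeded that of gga-miR-222 by 0.14 on array 1, 0.34 on array 2 and 0.18 on array 3. The mean difference was 0.22 ± 0.11 (SD, n = 3 arrays), in the same direction on 3 of 3 arrays (p = 0.25, two-sided, by flipping signs in an exact permutation test, which can go no lower). From the signals, the differences were 0.19, 0.58 and 0.30, with a mean of 0.36 ± 0.20 (SD, n = 3 arrays). The table of log2 ratios that the authors deposited, read as dwarf over normal, gave 0.23, 0.34 and 0.37. In that table gga-miR-221 itself was at 0.11, 0.090 and -0.67, and gga-miR-222 at -0.13, -0.25 and -1.05, on arrays 1, 2 and 3. Array 3 was the lowest for both miRNAs in that table, but this order did not hold in all settings. With no background correction gga-miR-222 was at -0.34 on array 2 and -0.31 on array 3, and with median centring gga-miR-221 was at -0.054 on array 1 and 0.043 on array 3.

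Over the 6 pools, Pearson's r of the log2 signals of gga-miR-221 and gga-miR-222 was 0.61. This value describes pools that share arrays, dyes and scaling. By this measure gga-miR-222 was the 19th most similar of the 84 other detected miRNAs to gga-miR-221, and gga-miR-221 the 16th most similar to gga-miR-222. With 6 pools r is imprecise, and it was not tested, so these ranks are a description only. The profiles closest to gga-miR-221 were those of gga-miR-15b (r = 0.86), gga-miR-15c (r = 0.85) and gga-miR-1759 (r = 0.84). The first pair belong to the miR-15 family, known in mammals for holding back the cell cycle. Closest to gga-miR-222 were gga-miR-92 (r = 0.87), of the miR-17-92 cluster of proliferating cells, gga-miR-206 (r = 0.86), a skeletal muscle miRNA that promotes differentiation, and gga-miR-2954 (r = 0.84), known in birds for higher levels in males.

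Other miRNAs of myogenic differentiation were counted for comparison. Of 17 miRNAs known from mammals or birds to rise as myoblasts differentiate or to promote that step, 12 were tested and 0 were called by limma, with 6 log2 fold changes above 0, 6 below and a median of -0.041. Of 11 known to fall or to be high in proliferating cells, members not counted, 8 were tested and 0 were called, with 6 above 0, 2 below and a median of 0.063. At an unadjusted p under 0.05 there was 1 in the first list and 0 in the second. Over all 85, 52 log2 fold changes were above 0 and 33 below, and their median was 0.039, near that of both lists. The 5 muscle markers (gga-miR-1a, gga-miR-133a, gga-miR-133b, gga-miR-206 and gga-miR-499) were all detected, with summed signals of 22480.3 to 41042.3 in dwarf and 25361 to 42620.8 in normal pools. Most of that sum was gga-miR-1a, and the markers did not move as one. The log2 ratios of gga-miR-1a were -0.28, -0.76 and -0.25 on arrays 1, 2 and 3, below 0 each time (mean -0.43, adjusted p = 0.584, limma). Those of gga-miR-499, encoded in a myosin gene of slow fibers, were 0.11, 2.15 and 1.93 (mean 1.40, unadjusted p = 0.0287, adjusted p = 0.584, limma). The signal of gga-miR-499 was 278 ± 231 (SD, n = 3 pools) in dwarf and 33.0 ± 36.5 in normal chickens, the latter barely above 32. On array 3, where both members were lowest, gga-miR-133a (-0.77), gga-miR-133b (-0.65) and gga-miR-206 (-0.51) were lower in the dwarf pool too. Their part in the ratios of the members on that array was not tested. The brain probes (gga-miR-9, gga-miR-124a and gga-miR-124b) and the pancreas probe gga-miR-375 were not detected, while 1 of 2 liver probes, gga-miR-122, was, at 75.9 ± 68.0 (SD, n = 3 pools) in dwarf and 193 ± 84.0 in normal chickens. Its log2 ratios were -0.15, -0.043 and -2.06 on the 3 arrays, so it too was lowest on array 3.

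Markers of vessels and blood were read beside the members, because vessel walls express both. The signals of gga-miR-126, an endothelial miRNA, on arrays 1, 2 and 3 were 2310, 2808 and 6016 in dwarf chickens, and 3839, 2351 and 2469 in normal chickens. Its log2 ratio was -0.73, 0.26 and 1.15 on the 3 arrays, so it was higher in the dwarf pool of array 3, where both members were lower. Of the red cell markers, gga-miR-451 had a mean signal of 83.0 in dwarf and 61.9 in normal chickens and gga-miR-144 was not detected. Of the 3 leukocyte probes, gga-miR-223 was just above 32, and those of gga-miR-142 were not detected. Over the whole list of vessel and blood miRNAs, 6 of 10 were tested, 4 log2 fold changes were above 0 and 2 below, and 0 were called (median 0.050). Among all 85 miRNAs tested, 52 were above 0 and 33 below. The summed signal of the list was 2955 to 7699 in dwarf and 3355 to 4789 in normal pools. Their part in the ratios of the members was not tested.

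**Figure D4:**
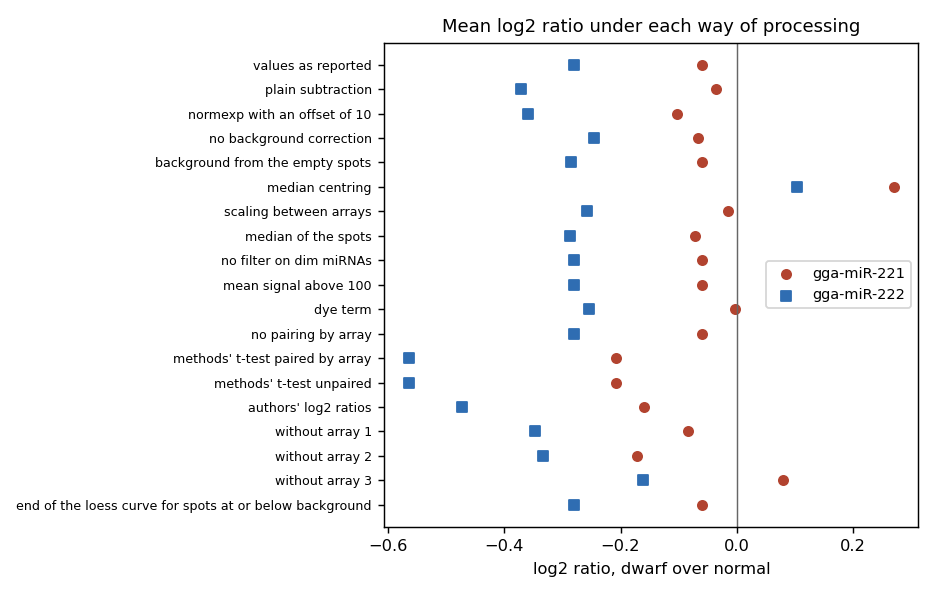
Mean log2 ratio (dwarf over normal) of gga-miR-221 (circles) and gga-miR-222 (squares) as reported and under each alternative. The methods' t-tests and the authors' log2 ratios change several choices of processing together. The values of gga-miR-222 lie below 0 except with median centring (0.10), while gga-miR-221 also turns above 0 without array 3 (0.079).

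The direction of the mean ratio of both members depended on the dye correction. When arrays were centred on their median instead of corrected by loess, the mean log2 ratio became 0.27 for gga-miR-221 and 0.10 for gga-miR-222, but the median of the 85 miRNAs rose to 0.51 as well, with 82 of them above 0. Relative to that median the members were at -0.24 and -0.41, against -0.098 and -0.32 after loess. On arrays 1, 2 and 3 median centring gave -0.054, 0.83 and 0.043 for gga-miR-221, and -0.12, 0.57 and -0.14 for gga-miR-222. The mean of gga-miR-222 thus turned above 0 through array 2 alone, the one with swapped dyes. In rank gga-miR-222 was the 6th lowest of the 85 with median centring and the 4th lowest in the authors' log2 ratios. Without array 3 the mean log2 ratio of gga-miR-222 was -0.16, and that of gga-miR-221 turned to 0.079. Without array 2 it was -0.33 for gga-miR-222 and -0.17 for gga-miR-221. The size of the lower value of gga-miR-222 and the sign of gga-miR-221 thus changed with the arrays kept. The dwarf pool was in Cy5 on arrays 1 and 3 and in Cy3 on array 2. A dye effect particular to a probe therefore does not cancel in the plain mean. With a term for dye the mean log2 ratio was -0.0022 for gga-miR-221 and -0.25 for gga-miR-222.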

How the data were processed

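The authors deposited, for each spot and dye, a mean intensity on a linear scale with its background still in it. They also deposited log2 ratios, 1 per miRNA and array, for which the methods name background subtraction and LOWESS. These served as an alternative only, and their centring and summary of spots are not given in the sources used here. They ran as dwarf over normal on each array, by their correlation with the ratios calculated here (0.83, 0.87 and 0.89 across 85 miRNAs). Over all the deposited ratios, not only those of the 85, the medians were 0.15, 0.018 and 0.15.

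R 4.3.3 and limma 3.58.1 were used. As the files hold no local background, a robust loess surface of log2 intensity over rows and columns (span 0.3, degree 1), drawn through the miRNA spots of an array and dye, stood in for it. Its median was 304 to 829.7 in Cy3 and 44.3 to 53.2 in Cy5. Ratios took normexp (offset 50) and loess (span 0.3, 4 iterations, miRNA spots), the mean of 6 spots, and a turned sign on array 2. In the signals, subtracted values under 1 were set to 1 to read the loess curve. The 85 miRNAs detected in either strain entered limma's lmFit and eBayes, with Benjamini-Hochberg adjustment. The steps were run on simulated data in which both dyes had the same response. That simulation therefore could not test the dye correction. Each array is 1 replicate, and having 3 arrays limits the precision.

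The members, lists and tests were chosen with earlier results of these data known. The miRNAs named are the members, the 3 others most correlated with each, and those of the marker lists. Alternatives changed the background, normalization, spot summary, filter, dye term, pairing, test or source of values, or left out an array.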

Additional observations from a re-analysis of the deposited data

How the results depend on the processing

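Neither gga-miR-221 nor gga-miR-222 reached an adjusted p under 0.05 in any of the 18 alternatives, where adjusted p ranged from 0.477 to 0.998 and from 0.381 to 0.998 (limma, or the methods' t-test on the signals). The log2 ratio of gga-miR-221 was below 0 in 16 of the 18 and that of gga-miR-222 in 17. These counts include settings that could not move the ratio. The changed filters on signal, the unpaired pools and the setting chosen after seeing the data all reused the reported ratios. The paired and the unpaired form of the methods' t-test also shared their ratio for each member. With median centring they were 0.27 and 0.10. Leaving out each array in turn gave -0.17 to 0.079 for gga-miR-221 and -0.35 to -0.16 for gga-miR-222. As gga-miR-222 was below 0 on every array, leaving out an array could not turn its sign. The lowest values, -0.21 and -0.57, came from signals without the offset. Without the pairing by array (no replicate block) the ratios stayed at -0.059 and -0.28 by construction, with adjusted p of 0.973 and 0.925 (limma). The difference between the members was above 0 in all 11 alternatives run for it, from 0.16 to 0.34, and 0.16 to 0.26 with each array left out. Those that left out an array could not fall below 0, since the difference was above 0 on each array. The number of miRNAs called over the whole table was 0, and became 1 with a mean signal above 100, and 0 to 2 with each array left out (1 without array 1, 2 without array 3), without either member. At an unadjusted p under 0.05 it was 5, and 2 to 20 over the alternatives. A setting chosen after seeing the data, in which spots at or below the background took the end of the loess curve, put 97 miRNAs to the test and left the members uncalled. The mean signal of gga-miR-221 in dwarf chickens moved from 107 to 130.1 with the background from the empty spots and to 129.6 without loess and scaling. With each array left out it ran from 99.9 to 119.6, and in normal chickens from 97.0 to 159. For gga-miR-222 these ranges were 108 to 151 and 184 to 222. Low signals limit what could be seen of both miRNAs, the mean of gga-miR-221 in the normal pool of array 1 being 4.42 times the noise of that dye.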
